A study of Ovis aries with 8 samples.

Results

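The genes described here are 54 genes of DNA replication and the cell cycle, read from liver RNA-seq of preweaning Assaf lambs (Ovis aries). They were taken as the rows of the deposited table whose gene symbol equals a listed name, and all 54 names were found among the table's 27729 genes. By role they comprise 25 replication genes (12 of origin licensing and the replicative helicase, 8 of the replication fork and 5 of nucleotide supply), 8 genes that control the passage from G1 into S phase, and 21 genes of mitosis. The 4 RES lambs were restricted to 120 mL of milk replacer per kg, and the 4 ADL lambs received the same replacer ad libitum, with 192 mL per kg given in the labels. The replacer held 200 g of dry matter per L. One liver library was made per lamb, so n = 4 in each group throughout, and lambs are named by group and number (RES 1 to RES 4, ADL 1 to ADL 4). RES lambs weighed 7.5 to 8.7 kg and ADL lambs 10.4 to 12.45 kg at slaughter, at 33 to 36 days of age in both groups. A difference between the groups in diet therefore cannot be told apart from one in body weight.

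Before a cell can copy its DNA, the MCM2 to MCM7 proteins are loaded as a ring onto replication origins by ORC, CDC6 and CDT1. CDC45 and the GINS complex then turn the ring into the active helicase, PCNA and its loader RFC tether the polymerases to the fork, and enzymes such as ribonucleotide reductase and thymidylate synthase supply deoxynucleotides. D-type cyclins and E2F factors switch these genes on at the end of G1, while cyclin B with CDK1, the aurora kinases and the spindle checkpoint act later, in G2 and mitosis. The liver of a suckling animal still grows by cell division, and most hepatocytes leave the cycle as it matures. Whole liver also holds Kupffer cells, endothelial cells, lymphocytes and, early in life, remnants of blood formation, all of which can divide.

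Library depth was even, at 15468879 to 17879918 reads on genes in RES and 15134039 to 17296102 in ADL. The liver label was checked against 9 hepatocyte markers, whose summed level was 129820 to 178080 TPM in RES and 112130 to 149890 TPM in ADL; TPM (transcripts of a gene in each 1e6 transcripts) is a level corrected for gene length. ADL 3 stood apart from the other ADL lambs. A principal component analysis of the log2 levels gave the RES lambs first component values of -20.6 to -14.8, ADL 3 a value of -46.3, and the remaining ADL lambs values of 34.3 to 46.2. On the second component RES 4 lay at -22.8 and the other RES lambs at 24.1 to 28.9. ADL 3 lay at -36.5 there, and the other ADL lambs at -19.2 to 10.3. Because of ADL 3, results are given with all 8 lambs and, where a call depends on it, also without that lamb.

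Of the 54 genes, 53 had a higher mean log2 level in RES than in ADL livers and 1, POLE, had a lower one. Each gene was tested with limma on log2(TPM + 0.5) in a fit over all 13812 genes with a mean of at least 1 TPM. Of the 54, 49 passed that filter, and CDC6, GINS2, CCNF, TTK and CENPE did not. None of the 49 passed an adjusted p of 0.05 with 8 lambs (smallest adjusted p = 0.272, limma), against 0.00724% of all tested genes, which is 1 gene. At an unadjusted p under 0.05, 14 of the 49 were higher in RES and 0 were lower, where 5.53% of all tested genes were higher and 4.17% lower. The limma log2 fold change (RES over ADL) was above 0 in 48 of the 49, against 43.5% of all tested genes. Voom on reads recovered from the TPM also called 0 of them, and the DESeq2 comparison in the authors' deposited table called 4 of the 54 higher (MCM10, GINS1, RFC4 and CHEK1) at an adjusted p under 0.05, where it called 1.25% of its genes higher. In bulk tissue, fewer cells of a type and less RNA per cell cannot be told apart.

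**Figure D1:**
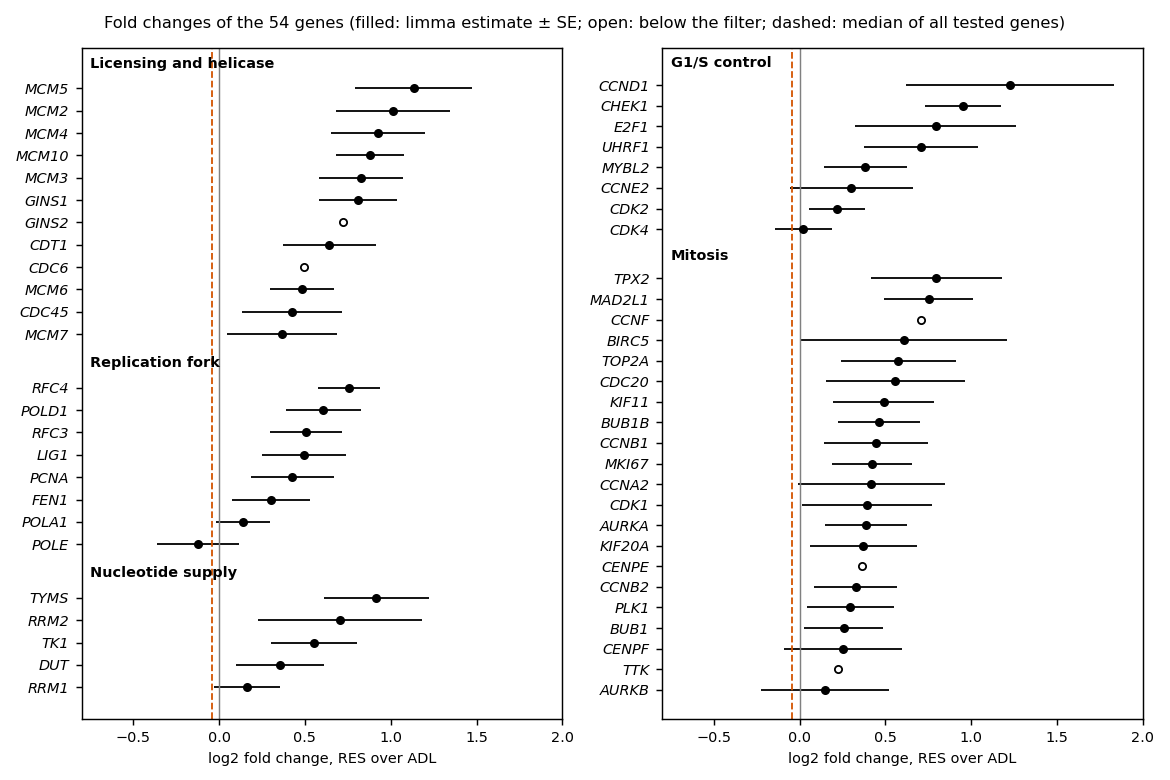
Log2 fold change (RES over ADL, on log2(TPM + 0.5)) of each of the 54 genes, ordered by role; filled points are limma estimates with their SE (n = 4 lambs per group), open points are genes below the filter of 1 TPM, and the dashed line is the median of all tested genes (-0.04). All points but that of POLE lie to the right of 0, and MCM5, MCM2 and CCND1 lie farthest to the right.

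Roles are compared by their medians, with no test. The median log2 fold change was 0.77 over the 12 licensing and helicase genes, 0.46 over the 8 fork genes, 0.55 over the 5 genes of nucleotide supply, 0.54 over the 8 G1/S genes and 0.42 over the 21 mitosis genes, beside -0.04 over all tested genes. The fold changes of low genes are understated on this scale, because 0.5 TPM was added to each value.

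The licensing and helicase genes had the largest median difference. MCM2, a subunit of the helicase ring and a common marker of cells licensed to divide, measured 8.90, 4.61, 8.83 and 3.74 TPM in RES 1 to RES 4 and 1.69, 2.48, 4.61 and 2.93 TPM in ADL 1 to ADL 4. RES 1 and RES 3 stood well above every ADL lamb, RES 2 equalled ADL 3, and RES 4 fell between ADL 3 and ADL 4, so the groups overlapped. Its log2 fold change was 1.01 (SE 0.33, adjusted p = 0.382, limma). MCM3, another subunit of the ring, measured 15.4, 10.8, 17.9 and 9.54 TPM in RES and 5.71, 6.10, 10.1 and 7.17 TPM in ADL. Only ADL 3 reached the RES range, and the log2 fold change was 0.83 (SE 0.24, adjusted p = 0.329, limma). For MCM4 and MCM5, outside the rule for named genes and chosen after their values were seen, the means were 10.3 ± 4.06 and 7.27 ± 3.31 TPM in RES against 4.98 ± 1.10 and 2.92 ± 1.15 TPM in ADL (SD, n = 4 each). MCM4 did not overlap between the groups, whereas MCM5 did, through RES 4 at 3.93 TPM and ADL 3 at 4.54 TPM. The remaining ring subunits differed less: MCM6 had a log2 fold change of 0.48 without overlap and MCM7 of 0.37 with overlap.

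MCM10, which helps to start the assembled helicase, had the smallest p among the replication genes. It measured 6.02, 4.94, 7.06 and 4.52 TPM in RES and 2.94, 2.10, 3.59 and 2.73 TPM in ADL. The lowest RES lamb lay above the highest ADL lamb, with a log2 fold change of 0.88 (SE 0.20, adjusted p = 0.272, limma). The authors' deposited table gives a shrunken log2 fold change of 0.87 (SE 0.23, adjusted p = 0.0145). The table places the gene on chromosome 13 from 26865076 to 26895110, with 21 exons.

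GINS1, one of the GINS subunits that complete the active helicase, was a low gene with 27 to 111 reads per lamb. Its level was 2.56, 1.63, 3.03 and 1.77 TPM in RES and 1.14, 0.710, 1.01 and 1.33 TPM in ADL. Again no RES lamb fell into the ADL range. The log2 fold change was 0.81 (SE 0.23, adjusted p = 0.303, limma), and the authors' deposited table gives 0.97 (SE 0.25, adjusted p = 0.00841). GINS2 had only 1 to 15 reads per lamb, at 0.256 to 0.931 TPM in RES and 0.0599 to 0.309 TPM in ADL, and was not tested. CDC6 and CDT1, the factors that load the ring, averaged 1.04 ± 0.684 and 1.94 ± 0.700 TPM in RES against 0.583 ± 0.382 and 1.05 ± 0.443 TPM in ADL, and CDC45 averaged 2.71 ± 1.34 TPM in RES against 1.79 ± 0.480 TPM in ADL (SD, n = 4 each). All 3 genes overlapped between the groups.

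**Figure D2:**
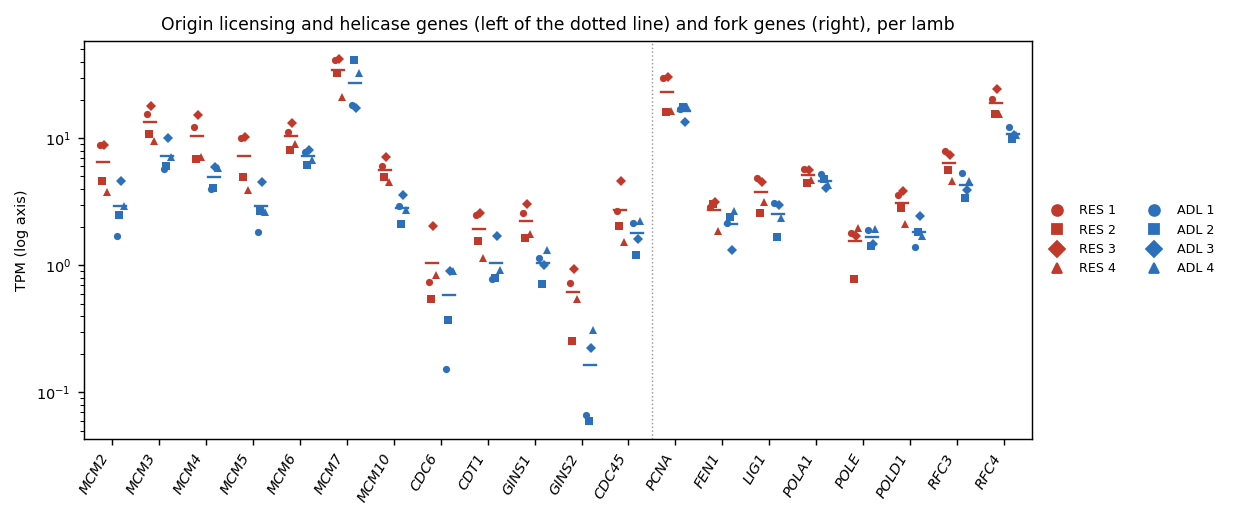
TPM (log axis) of the 12 licensing and helicase genes and the 8 fork genes in each lamb, with RES in red left of ADL in blue for each gene, a marker shape for each lamb number and a bar at the group mean. For MCM4, MCM6, MCM10, GINS1 and RFC4 every red point lies above every blue point.

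At the fork, RFC4, a subunit of the clamp loader that opens PCNA and closes it around DNA, differed most. It measured 20.5, 15.6, 24.5 and 15.6 TPM in RES and 12.3, 9.94, 10.7 and 10.7 TPM in ADL. The ADL lambs lay close together and all below RES, and the log2 fold change was 0.76 (SE 0.18, adjusted p = 0.280, limma). In the authors' deposited table the gene has a log2 fold change of 0.78 (SE 0.18, adjusted p = 0.00286), and it lies on chromosome 1 from 198495741 to 198508933, with 11 exons. PCNA itself, the clamp and a classic marker of proliferation, measured 29.6, 16.1, 30.4 and 16.3 TPM in RES and 16.9, 17.5, 13.5 and 17.6 TPM in ADL. RES 1 and RES 3 were high, while RES 2 and RES 4 lay within the ADL range. Its log2 fold change of 0.43 (SE 0.24) had an adjusted p of 0.629 (limma).

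The other fork genes had smaller fold changes than RFC4. POLD1, the catalytic subunit of the lagging strand polymerase, RFC3, a further clamp loader subunit, and LIG1, which seals the fragments of that strand, had log2 fold changes of 0.61, 0.51 and 0.49. FEN1, the nuclease that trims those fragments, had one of 0.30. The initiating polymerase POLA1 averaged 5.10 ± 0.631 TPM in RES and 4.58 ± 0.514 TPM in ADL, and the leading strand polymerase POLE averaged 1.55 ± 0.529 TPM in RES and 1.68 ± 0.269 TPM in ADL (SD, n = 4 each). Neither of these polymerases differed beyond the spread between lambs. POLE was the gene with a negative log2 fold change, -0.12 (SE 0.24), and its lowest value, 0.776 TPM, was in RES 2.

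Among the 5 genes that supply deoxynucleotides, no gene separated the groups. TYMS, thymidylate synthase, averaged 11.0 ± 5.12 TPM in RES against 5.21 ± 1.12 TPM in ADL (SD, n = 4 each), a log2 fold change of 0.92 (SE 0.31, adjusted p = 0.387, limma). RRM2, the regulated small subunit of ribonucleotide reductase, reached 15.2 TPM in RES 3 and was as low as 2.39 TPM in RES 2, against 2.54 to 5.46 TPM in ADL. RRM1, its large subunit, differed far less, with a log2 fold change of 0.16. TK1, the salvage enzyme thymidine kinase, and DUT, which removes dUTP, had log2 fold changes of 0.55 and 0.35.

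Of the G1/S genes, CHEK1 separated the groups. CHEK1 encodes a checkpoint kinase that restrains origin firing and mitosis while DNA is incompletely copied. It measured 43.1, 47.7, 34.9 and 34.5 TPM in RES and 18.0, 14.2, 25.8 and 25.6 TPM in ADL. Every RES lamb lay above every ADL lamb, and here RES 2 was the highest lamb and RES 3 was not. The log2 fold change was 0.95 (SE 0.22, adjusted p = 0.280, limma), and the authors' deposited table gives 0.83 (SE 0.24, adjusted p = 0.0345) for the gene, at chromosome 21 from 28213992 to 28232861, with 14 exons.

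CCND1, cyclin D1, which couples growth signals to the cycle and was the most abundant of the 54 genes in RES, measured 73.4, 104.9, 60.8 and 15.9 TPM in RES and 49.0, 15.1, 10.8 and 29.7 TPM in ADL. The means of 63.8 ± 36.9 TPM in RES and 26.1 ± 17.2 TPM in ADL (SD, n = 4 each) had wide spreads, because RES 4 lay with the ADL lambs and ADL 1 lay near RES. Its log2 fold change, 1.23, was the largest of the 54, with an SE of 0.61 and an adjusted p of 0.566 (limma). Its partner kinase CDK4 averaged 32.2 ± 4.20 TPM in RES and 31.8 ± 4.35 TPM in ADL, with a log2 fold change of 0.02 (SE 0.16) that turned below 0 when RES 1, RES 3 or ADL 3 was left out.

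E2F1, the transcription factor that switches on S phase genes, split the RES group. It measured 3.58, 0.658, 3.96 and 0.672 TPM in RES and 0.549, 0.616, 0.925 and 1.15 TPM in ADL. RES 1 and RES 3 stood apart from all other lambs, and RES 2 and RES 4 lay among the ADL lambs (log2 fold change 0.79, SE 0.47, adjusted p = 0.644, limma). UHRF1, which maintains DNA methylation on new strands, showed the same split, with 4.21, 1.79, 4.14 and 1.39 TPM in RES and 1.01, 1.14, 1.68 and 1.94 TPM in ADL (log2 fold change 0.71, SE 0.33, adjusted p = 0.538, limma). CDK2, CCNE2 and MYBL2, the S phase kinase, its cyclin partner E2 and an activator of late cycle genes, had log2 fold changes of 0.22, 0.30 and 0.38.

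**Figure D3:**
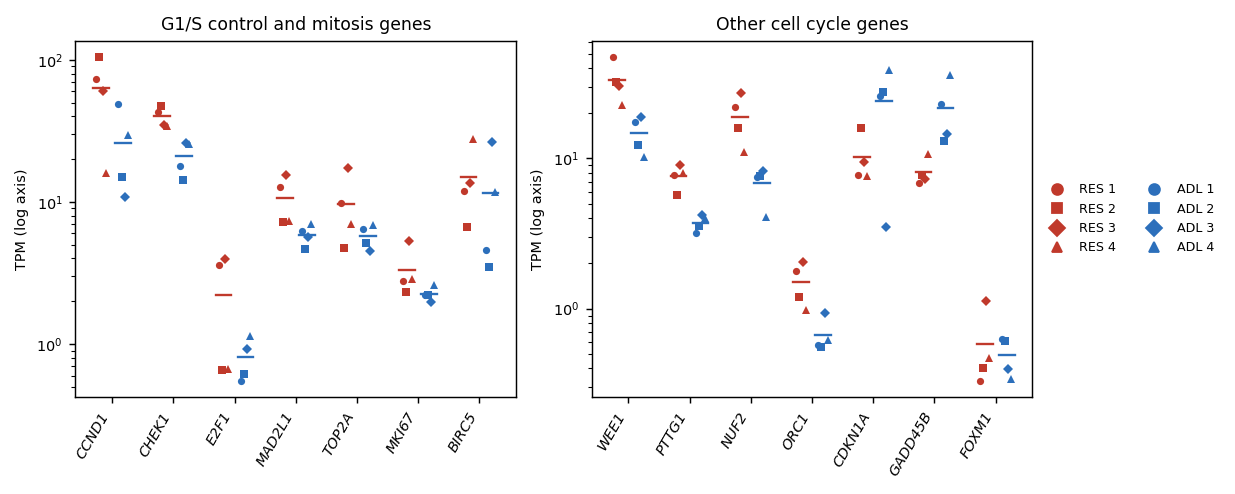
TPM (log axis) in each lamb of 7 G1/S and mitosis genes (left) and 7 other cell cycle genes (right), with RES in red left of ADL in blue, a marker shape for each lamb number and a bar at the group mean. CHEK1, MAD2L1, WEE1, PTTG1, NUF2, ORC1 and GADD45B do not overlap between the groups, GADD45B being lower in RES, and ADL 3 lies below every other lamb for CDKN1A.

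All 21 mitosis genes had a higher mean log2 level in RES, but most of the difference lay in 1 lamb. MAD2L1, which holds back anaphase until chromosomes are attached, was the mitosis gene without overlap, with 12.7, 7.28, 15.4 and 7.35 TPM in RES and 6.20, 4.67, 5.70 and 6.97 TPM in ADL. The gap between the lowest RES and the highest ADL lamb was small, and the log2 fold change was 0.75 (SE 0.26, adjusted p = 0.399, limma). TPX2, which builds the spindle and activates aurora A, measured 15.1, 9.22, 12.7 and 5.64 TPM in RES and 8.38, 2.71, 8.35 and 4.84 TPM in ADL (log2 fold change 0.80, SE 0.38, adjusted p = 0.547, limma). For TPX2 only RES 4 fell within the ADL range.

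MKI67, the Ki-67 antigen used in pathology to count cycling cells, measured 2.79, 2.34, 5.29 and 2.87 TPM in RES and 2.20, 2.23, 1.98 and 2.58 TPM in ADL. RES 3 stood far above the other lambs, RES 1 and RES 4 lay just above the ADL range and RES 2 within it (log2 fold change 0.42, SE 0.23, adjusted p = 0.613, limma). TOP2A, the topoisomerase that untangles sister chromatids, measured 9.77, 4.78, 17.2 and 6.94 TPM in RES and 6.43, 5.10, 4.55 and 6.89 TPM in ADL (log2 fold change 0.58, SE 0.33, adjusted p = 0.635, limma). CDK1, the kinase that drives entry into mitosis, measured 6.43, 2.76, 12.7 and 4.44 TPM in RES and 4.48, 3.16, 5.56 and 3.95 TPM in ADL (log2 fold change 0.40, SE 0.38, adjusted p = 0.773, limma). In both genes RES 2 lay within or below the ADL range while RES 3 was the highest lamb. BUB1B, a spindle checkpoint kinase, measured 2.14, 1.23, 2.97 and 2.08 TPM in RES and 1.64, 1.10, 1.08 and 1.58 TPM in ADL (log2 fold change 0.46, SE 0.24, adjusted p = 0.585, limma).

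The remaining mitosis genes had log2 fold changes from 0.15 (AURKB, aurora kinase B) to 0.71 (CCNF, cyclin F, below the filter). The mitotic cyclins CCNA2, CCNB1 and CCNB2 had log2 fold changes of 0.42, 0.44 and 0.33. CDC20, which activates the anaphase ligase, had one of 0.56, and PLK1, a kinase of mitotic entry, one of 0.30. AURKA had one of 0.39, and the spindle motors KIF11 and KIF20A 0.49 and 0.37. BUB1, TTK, CENPE and CENPF, genes of the kinetochore and its checkpoint, had log2 fold changes of 0.26, 0.22, 0.37 and 0.25. Neither BUB1 nor CENPF differed beyond its spread (adjusted p = 0.754 and 0.846, limma), and TTK and CENPE, below the filter, were not tested. BIRC5, survivin, named after its values were seen, departed from the other mitosis genes: it was highest in RES 4 at 28.0 TPM and in ADL 3 at 26.5 TPM, against 3.47 to 13.7 TPM in the other 6 lambs.

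**Figure D4:**
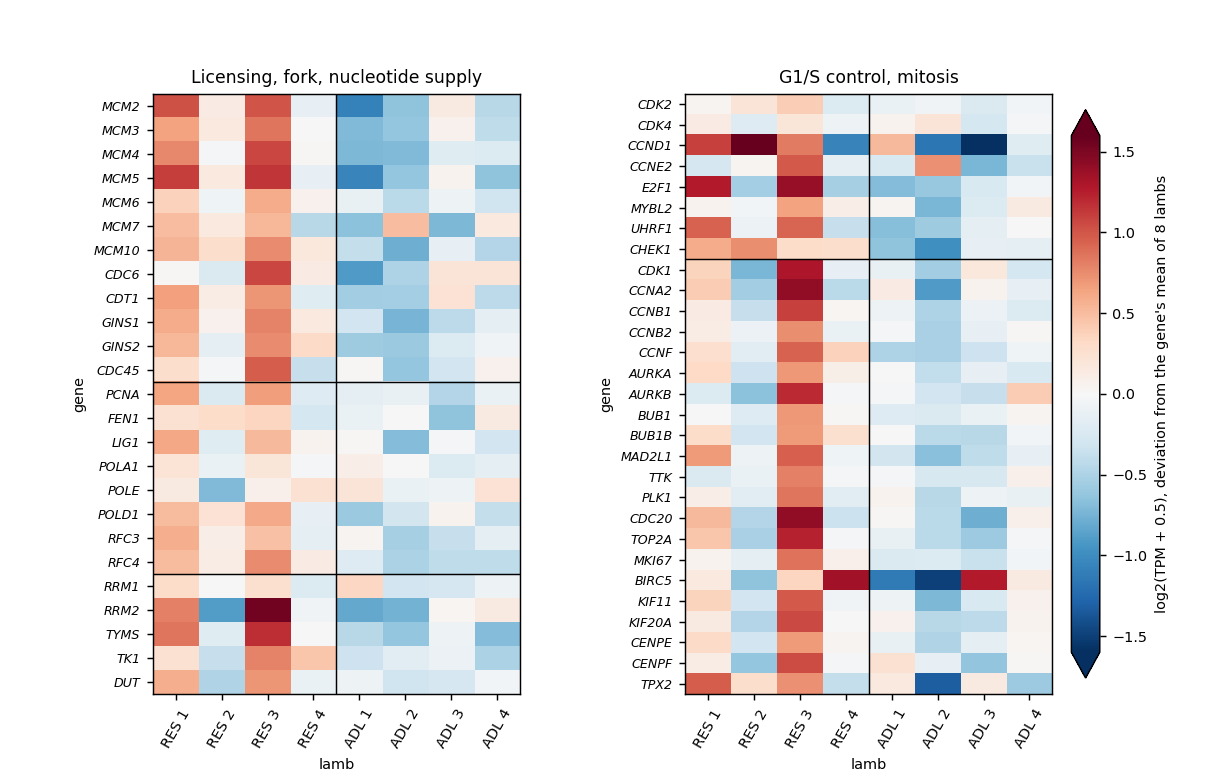
Deviation of log2(TPM + 0.5) from each gene's mean of the 8 lambs, for the 25 replication genes (left) and the 8 G1/S and 21 mitosis genes (right), with RES lambs left of ADL lambs and horizontal lines between roles; values beyond the ends of the colour scale take its end colour. The RES 3 column is red for nearly every gene and the RES 1 column, more faintly, for most genes of all roles, while RES 2 and RES 4 hold both colours.

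Most of the difference was carried by RES 1 and RES 3. RES 3 was the highest of the 8 lambs in 42 of the 54 genes, comprising 19 of the 25 replication genes, 4 of the 8 G1/S genes and 19 of the 21 mitosis genes. Among the tested genes it was highest in 37 of 49, against 11.7% of all tested genes. RES 1 and RES 3 were both above every ADL lamb in 39 of the 49 tested genes, against 12.2% of all tested genes. All 4 RES lambs lay above all 4 ADL lambs in 7 of the 49 (MCM4, MCM6, MCM10, GINS1, RFC4, CHEK1 and MAD2L1), against 2.80% of all tested genes. Summed over the 54 genes, the level was 527, 423, 590 and 337 TPM in RES 1 to RES 4 and 319, 270, 293 and 323 TPM in ADL 1 to ADL 4. Every RES lamb was above every ADL lamb in this sum, RES 4 by a small margin. The mean log2 deviation of the 54 genes from the mean of the 8 lambs, which weighs genes equally, overlapped between the groups. It was -0.13 in RES 2 and -0.12 in ADL 4.

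Replication and mitosis genes were compared within lambs, by the mean log2 deviation of each class from the mean of the 8 lambs. The replication score was 0.53, -0.07, 0.73 and -0.03 in RES 1 to RES 4 and -0.36, -0.43, -0.17 and -0.20 in ADL 1 to ADL 4, so that the groups did not overlap. The mitosis score was 0.25, -0.33, 0.94 and 0.02 in RES and -0.11, -0.54, -0.18 and -0.05 in ADL, and here RES 2 lay below 3 ADL lambs. Replication minus mitosis averaged 0.07 ± 0.24 in RES and -0.07 ± 0.17 in ADL (SD, n = 4 each), a difference of 0.14 that was smaller than the spread between lambs. Without RES 3 the median log2 fold change was 0.18 over the mitosis genes and 0.40 over the replication genes, and 49 of the 54 genes, 18 of them of mitosis, were still higher in RES. The median over the G1/S genes was 0.35 without RES 3. Without RES 2 the median over the mitosis genes was 0.64. No p is given for these scores, since the genes were chosen as a class.

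**Figure D5:**
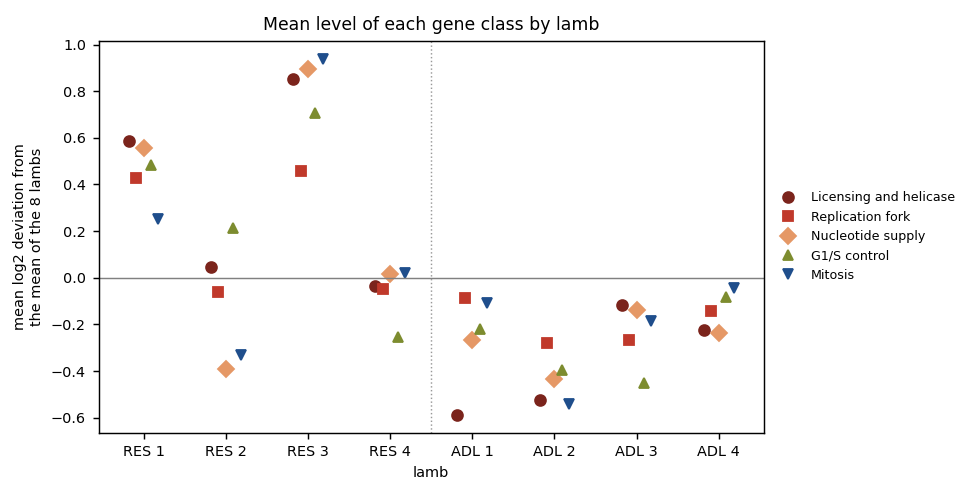
Mean log2 deviation from the mean of the 8 lambs for each gene class in each lamb, RES left and ADL right of the dotted line. In RES 3 mitosis is the highest class (0.94), in RES 1 and RES 2 it lies below licensing, and all classes are below 0 in the 4 ADL lambs.

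Which genes passed the threshold depended on ADL 3. Without it, limma called 6 of the 49 genes higher in RES and 0 lower, where it called 2.42% of all tested genes higher and 7.59% lower, and the median of all tested genes moved to -0.13. The 6 were MCM10 (log2 fold change 0.98, adjusted p = 0.0210), CHEK1 (1.07, 0.0243), MCM3 (0.99, 0.0331), RFC4 (0.75, 0.0399), MCM5 (1.34, 0.0436) and MCM2 (1.23, 0.0490), all by limma over the 7 lambs. Over all settings tried, the adjusted p ranged from 0.00751 to 0.675 for MCM10, from 0.0120 to 0.675 for RFC4, from 0.0184 to 0.675 for CHEK1, from 0.0143 to 0.759 for MCM3, from 0.0154 to 0.764 for MCM5 and from 0.0222 to 0.779 for MCM2 (limma), while their log2 fold changes stayed positive, between 0.63 and 1.46. Replication genes made up 5 of them and mitosis genes 0; whether the classes differ in this respect was not tested. At the same time 13 of the 49 genes had no overlap between 4 RES and 3 ADL lambs, against 6.16% of all tested genes. GINS1, which the authors' deposited table calls, had an adjusted p of 0.0740 (limma). Where the TPM of the 7 lambs were also rescaled by the median of ratios, a choice made after seeing the data, 10 genes were called higher, 9 of them of replication, and 0 lower, where 4.46% of all tested genes were called higher and 3.87% lower; MCM4, MCM6, GINS1 and POLD1 joined the 6.

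Further genes of the same machinery, which are not among the 54, were read from the same limma fit in 6 lists. None of them passed with 8 lambs. Of 22 other fork genes 20 had a positive log2 fold change (median 0.38), and of 21 other licensing genes 16 (median 0.14). At an unadjusted p under 0.05, against 5.53% of all tested genes, 8 of 21 tested other fork genes, 3 of 19 other licensing genes, 1 of 14 other G1/S genes and 7 of 40 other mitosis genes were higher in RES. ORC1, the origin recognition subunit that cycles with S phase, had the smallest p there, with 1.79, 1.19, 2.06 and 0.976 TPM in RES against 0.576, 0.557, 0.932 and 0.616 TPM in ADL (log2 fold change 0.75, SE 0.23, adjusted p = 0.359, limma) and no overlap. PRIM2, the large primase subunit, had the smallest p of the fork list, with 8.99, 8.53, 12.0 and 4.54 TPM in RES against 3.44, 2.94, 6.07 and 3.59 TPM in ADL (log2 fold change 0.97, adjusted p = 0.352, limma; 0.0392 without ADL 3). POLD2, an accessory subunit of the lagging strand polymerase named after its values were seen, measured 6.93, 4.61, 7.23 and 4.67 TPM in RES against 3.75, 1.71, 5.36 and 2.62 TPM in ADL. With 8 lambs its groups overlapped through ADL 3, and it passed without that lamb (log2 fold change 1.02, adjusted p = 0.0454, limma).

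In the other lists of mitosis genes 45 of 48 were positive (median 0.36). Their mean log2 deviation was 0.40, -0.31, 0.87 and -0.11 in RES 1 to RES 4. In ADL it was -0.34 to -0.09, so the groups overlapped and RES 3 was again the highest lamb. PTTG1, securin, which guards sister chromatid cohesion, measured 7.82, 5.75, 9.04 and 8.02 TPM in RES and 3.21, 3.53, 4.18 and 4.02 TPM in ADL. Its groups were well apart, and RES 3 was the highest lamb, followed by RES 4 and RES 1. The log2 fold change was 0.94 (SE 0.18, adjusted p = 0.182, limma), with an adjusted p of 0.0161 without ADL 3 (limma). For PTTG1 the authors' deposited table gives an adjusted p of 0.00699. NUF2, a kinetochore protein named after its values were seen, also passed without ADL 3 and in the authors' deposited table (adjusted p = 0.00331). It had 11.0 to 27.2 TPM in RES against 4.06 to 8.23 TPM in ADL (log2 fold change 1.38, adjusted p = 0.272, and 0.0322 without ADL 3, limma). The 15 subunits of the anaphase ligase were 6 positive and 9 negative (median -0.06), and CDC26 among them, with 25.5 to 27.2 TPM in RES and 29.6 to 50.2 TPM in ADL, was lower in RES without overlap (log2 fold change -0.37, adjusted p = 0.579, limma).

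The brakes of the cycle had fold changes of both signs, with 11 of 23 positive (median -0.01), and the other G1/S genes had a median of 0.15 with 15 of 19 positive. WEE1, the kinase that holds CDK1 inactive, measured 47.5, 32.5, 30.5 and 22.6 TPM in RES and 17.5, 12.4, 18.9 and 10.2 TPM in ADL, without overlap. Its log2 fold change was 1.14 (SE 0.26, adjusted p = 0.275, limma; 0.0268 without ADL 3), and the authors' deposited table gives an adjusted p of 0.0125. GADD45B, a stress-induced gene that slows the cycle, named after its values were seen, measured 6.82, 7.73, 7.35 and 10.7 TPM in RES and 22.9, 13.0, 14.7 and 35.7 TPM in ADL. Its groups did not overlap (log2 fold change -1.26, SE 0.30, adjusted p = 0.280, limma; 0.0324 without ADL 3), and the authors' deposited table gives an adjusted p of 0.00914.

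CDKN1A, the inhibitor p21 that arrests cells in G1, measured 7.79, 15.9, 9.41 and 7.69 TPM in RES and 26.2, 27.6, 3.50 and 38.9 TPM in ADL. ADL 3 was the lowest of all 8 lambs and the other ADL lambs were the 3 highest. The log2 fold change was -0.86 (SE 0.63, adjusted p = 0.710, limma), and without ADL 3 it was -1.59 (adjusted p = 0.0144, limma). E2F3, an activating E2F, and TOB1, an antiproliferative gene, both named after their values were seen, likewise had their lowest level in ADL 3. E2F3 measured 2.09, 2.77, 2.94 and 3.07 TPM in RES and 5.60, 7.02, 1.57 and 6.99 TPM in ADL, and was lower in RES without ADL 3 (log2 fold change -1.13, adjusted p = 0.00986, limma). TOB1 measured 29.8, 30.7, 28.9 and 28.4 TPM in RES and 57.2, 42.2, 20.8 and 41.5 TPM in ADL, and was lower in RES without ADL 3 (log2 fold change -0.65, adjusted p = 0.0284, limma). MNAT1, the assembly factor of the CDK-activating kinase, had the smallest p of the other G1/S genes, with 3.55, 5.12, 3.77 and 4.54 TPM in RES and 4.01, 2.95, 2.38 and 2.81 TPM in ADL (log2 fold change 0.43, adjusted p = 0.512, limma). FOXM1, the activator of mitotic genes, was low in all lambs, with 0.330, 0.401, 1.12 and 0.470 TPM in RES and 0.628, 0.611, 0.397 and 0.340 TPM in ADL, again highest in RES 3.

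Markers of other cells that could divide in the liver were set beside these results. The 8 T and NK cell markers summed to 33.9 to 44.4 TPM in RES and 26.1 to 33.2 TPM in ADL, without overlap. Their mean log2 deviation, which weighs the markers equally, overlapped, at -0.08 to 0.34 in RES and -0.29 to 0.03 in ADL. Of the 8 markers, 6 had a positive log2 fold change. CD3E, of the T cell receptor complex, had 6.28 to 11.9 TPM in RES and 4.45 to 7.96 TPM in ADL. The 9 macrophage markers summed to 1380 to 1600 TPM in RES and 1167 to 1425 TPM in ADL, with 7 of 9 positive, and C1QB was the most abundant at 336 to 393 TPM in RES and 271 to 360 TPM in ADL. These most abundant markers overlapped between the groups, while 1 marker of each list, named after its values were seen, did not. NKG7, a granule protein of cytotoxic lymphocytes, measured 9.01, 10.8, 6.37 and 10.3 TPM in RES and 5.65, 6.32, 5.68 and 5.97 TPM in ADL (log2 fold change 0.56, adjusted p = 0.371, limma). C1QA, a complement chain of macrophages, measured 307, 323, 297 and 314 TPM in RES and 204, 240, 221 and 279 TPM in ADL (log2 fold change 0.40, adjusted p = 0.453, limma). In RES 3, where most of the 54 genes were highest, the T and NK markers summed to 37.7 TPM and the macrophage markers to 1380 TPM, and this macrophage sum was the lowest of the RES lambs. The part of these cells in the differences was not tested.

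Red cell precursors had little RNA in these livers. Of the 9 markers found, SLC4A1, the anion exchanger, was at 0 in ADL 3 and in every RES lamb, AHSP was at 0 in RES 1, RES 2, RES 3 and ADL 1, and ALAS2 was at 0 in RES 1, RES 2 and ADL 3. Their sum, 27.3 to 129 TPM in RES and 24.8 to 72.9 TPM in ADL, came almost wholly from HBB and TFRC. HBB was highest in RES 3, the lamb with the highest mitosis score, at 105 TPM, and was 57.5 TPM in RES 4, 51.6 TPM in ADL 1 and 2.79 to 11.2 TPM in the other 5 lambs; its part in the mitosis score was not tested. Of 6 bile duct markers all 6 had a negative log2 fold change, and their sum was 11.7 to 90.6 TPM in RES and 32.4 to 121 TPM in ADL, with SPP1 the most abundant at 1.85 to 81.9 TPM in RES and 11.6 to 79.1 TPM in ADL. KRT19, a keratin of the duct lining named after its values were seen, measured 3.63, 1.61, 3.28 and 1.99 TPM in RES and 11.8, 5.43, 10.4 and 5.06 TPM in ADL. It was lower in every RES lamb than in any ADL lamb (log2 fold change -1.44, SE 0.32, adjusted p = 0.272, limma; 0.0503 without ADL 3), and the authors' deposited table gives an adjusted p of 0.00699. EPCAM and KRT7, also of the duct lining and named after their values were seen, overlapped. Their log2 fold changes were -1.38 (EPCAM, adjusted p = 0.336) and -1.12 (KRT7, adjusted p = 0.368, both limma). The part of bile duct cells in the differences was not tested.

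B cell markers summed to 19.2 to 41.5 TPM in RES and 27.2 to 49.4 TPM in ADL, nearly all of it JCHAIN, the joining chain of secreted antibodies, at 17.4 to 39.6 TPM in RES and 25.8 to 47.7 TPM in ADL. JCHAIN was the 1 of 6 B cell markers with a negative log2 fold change. CD79A, of the B cell receptor and named after its values were seen, had 1.21 to 1.57 TPM in RES and 0.563 to 1.11 TPM in ADL, without overlap (log2 fold change 0.52, adjusted p = 0.453, limma), and PAX5 was at or below 0.022 TPM in every lamb. Endothelial markers summed to 258 to 353 TPM in RES and 250 to 453 TPM in ADL, with 7 of 8 negative and LYVE1 highest at 49.9 to 111 TPM in RES and 64.9 to 169 TPM in ADL; LYVE1 was lower in RES without ADL 3 (log2 fold change -0.99, adjusted p = 0.0490, limma) and had an adjusted p of 0.524 with all 8 lambs. Stellate cell markers summed to 339 to 501 TPM in RES and 425 to 603 TPM in ADL, with COL3A1, a collagen chain, at 120 to 172 TPM in RES and 165 to 234 TPM in ADL, and 3 of the 8 were positive. Among these 3, ACTA2, smooth muscle actin, named after its values were seen, had 55.1 to 102 TPM in RES and 35.3 to 123 TPM in ADL, with ADL 3 the highest lamb; it was higher in RES without ADL 3 (log2 fold change 1.04, adjusted p = 0.0261, limma) and had an adjusted p of 0.666 with all 8 lambs. ALB, the hepatocyte product with the highest level, ranged from 28707 to 111610 TPM in RES and from 31098 to 78469 TPM in ADL, and overlapped.

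Some of the 54 genes share their position with a neighbour in the table, and the sources used here do not state whether reads were counted by strand. MCM2 lies within the span of KLF15, on the opposite strand, over 19102 bases; KLF15 had 22.3 to 26.5 TPM in RES and 18.2 to 20.7 TPM in ADL. CCNB2 shares 10863 bases with MYO1E, which had 5.99 to 8.16 TPM in RES and 2.42 to 5.90 TPM in ADL, again without overlap. KIF20A shares 7788 bases with CDC23, FEN1 1916 with TMEM258, TYMS 183 with ENOSF1, and E2F1 5191 with PXMP4 on its own strand. CDC6 shares 3936 bases with a neighbour, POLA1 2669, RRM1 2582 (also on its own strand) and BUB1B 2073. CCNA2, CDC45, MCM7 and PLK1 also share bases, over shorter stretches. For CCNA2 a neighbour, BBS7, and for MCM7 both neighbours lie on the gene's own strand. Values of all these genes are less certain than those of the others for that reason. MCM3, MCM4, MCM5, MCM10, GINS1, RFC4, CHEK1 and MAD2L1 share no bases with another gene of the table.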

How the data were processed

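Liver poly(A) RNA of 8 separate lambs was sequenced from both ends, 1 library each. Expression values are the authors' deposited TPM. Whole reads were recovered from TPM times gene length (100% of values were whole within 0.001 of a read), and their totals are the depth. The submitters' processing notes name bcl2fastq 1.8.4 and DESeq2 1.12.4. Aligner, read counter and genome build: not given in the sources used here. Per the file headers, the table also gives the authors' DESeq2 comparison in columns for the mean signal, the shrunken log2 fold change, the adjusted p-value, the p-value and the test score. The headers do not name its direction, which was read from the TPM. Positions are those of the table; CDK1 has none there.

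Genes with a mean of at least 1 TPM were fitted with limma 3.58.1 in R 4.3.3 (trended prior), with log2(TPM + 0.5) as the response. P-values are two-sided, adjusted by Benjamini-Hochberg over all genes in the fit, with a threshold of 0.05. The genes and lists were chosen with earlier results of these data known, so no test is given for a list. Names not found (2 of 150 other cell cycle genes, 4 of 67 markers) were left out. Lamb values are printed for the genes with the 4 smallest p in each class of the 54, 6 usual proliferation markers, those of the 54 called by the authors' table, the gene with the smallest p in each other cell cycle list, CDKN1A and FOXM1, and ranges for the most abundant marker of each cell type. Others are said to be named after their values were seen, which also holds for SLC4A1, AHSP, ALAS2 and PAX5. Same-numbered lambs are different animals and were not paired (correlations across genes 0.11, -0.00, -0.04 and 0.16). Promoter and protein sequences were not used here.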

Additional observations from a re-analysis of the deposited data

Results flagged for a closer look

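Of 108 sets of 4 lambs (54 genes in both groups), 2 held a lamb far from the other 3, where chance gives about 1 in 20. TTK, a spindle checkpoint kinase, had 1.57 TPM in RES 3 and 0.505 to 0.654 TPM in the other RES lambs. CDT1, which loads the helicase ring, had 1.71 TPM in ADL 3 and 0.781 to 0.916 TPM in the other ADL lambs.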

How the results depend on the processing

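With every setting tried, 49 to 54 of the 54 genes were higher in RES, and the medians of the replication and mitosis genes kept their sign. The count of genes called over the whole table, 1 with 8 lambs, was 0 with no filter and with median-of-ratios scaling, 1969 with sample quality weights and 1150 without ADL 3 after rescaling, a setting added after the data were seen; leaving out each lamb gave 0 to 1382. The count among the 54, 0 with 8 lambs, was 13 with sample quality weights (ADL 3 had the lowest weight, 0.16), 10 without ADL 3 after rescaling, and 0 to 6 with each lamb left out, 6 only without ADL 3. With lamb number as a block 0 genes were called over the whole table and 0 of the 54; no pairing of lambs is known. Directions turned in 5 genes near 0. The log2 fold change of AURKB was -0.061 with sample quality weights. With each lamb left out it ranged from -0.23 to 0.39 for AURKB, -0.067 to 0.096 for CDK4, -0.22 to 0.093 for POLE, -0.0082 to 0.34 for TTK and -0.050 to 0.50 for CENPF. The turn came without RES 3 in AURKB, TTK and CENPF, without RES 2 in POLE, and without RES 1, RES 3 or ADL 3 in CDK4. The cause of these turns was not tested. GINS2, with 1 to 15 reads per lamb, is limited by depth.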

Other observations

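BIRC5 and SPP1 shared their extreme lambs: BIRC5 was highest in RES 4 (28.0 TPM) and ADL 3 (26.5 TPM), and SPP1, osteopontin, was highest in RES 4 (81.9 TPM) and ADL 3 (79.1 TPM), against 1.85 to 33.0 TPM in the other 6 lambs. FGB and HP, from the list of hepatocyte markers, were likewise highest in ADL 3 (53575 and 35697 TPM) and RES 4 (39820 and 34727 TPM). HP was nearly as high in ADL 4, at 31041 TPM. None of the other hepatocyte markers was highest in ADL 3 or RES 4. ALB, APOA1 and TTR instead had their lowest levels in these lambs, ALB at 31098 TPM in ADL 3 and 28707 TPM in RES 4. All of these genes were picked after their values were seen. CHEK1 and WEE1, kinases that restrain the cycle, did not peak in RES 3 as most of the 54 genes did. CHEK1 was highest in RES 2 (47.7 TPM) and WEE1 in RES 1 (47.5 TPM). They were set together after their values were seen. Other brakes, among them CDKN2C and CDKN2D, were highest in RES 3, while MCM2 and TPX2, which are not brakes, were highest in RES 1.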
